A study of Mus musculus with 6 samples.

Results

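Annexins and ferlins are calcium-dependent membrane proteins that take part in closing wounds in the plasma membrane. The genes described here are 8 annexins (Anxa1, Anxa2, Anxa3, Anxa4, Anxa5, Anxa6, Anxa7 and Anxa11) and 2 ferlins (Myof and Dysf), 10 of the 24346 genes in each expression table. They were matched by gene symbol, and the list was chosen by a reading of these same FPKM values, with the difference between IL-33 and PBS libraries known. Their values in that comparison are therefore a description without p-values. The samples were mouse splenic CD11c+ dendritic cells, enriched magnetically on an autoMACS instrument, in 3 libraries of cells treated with IL-33 and 3 libraries of cells treated with PBS. IL-33 is a cytokine of the IL-1 family that injured barrier tissue releases, and PBS is the buffer used as its control. The labels give no strain, age, genotype, dose, time or route. They do not tie the replicates of a group to different mice, so a p-value measures only how far these libraries vary, and that variation may be technical.

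When the plasma membrane tears, calcium enters the cell and draws annexins to the inner leaflet, where they bind negatively charged phospholipids such as phosphatidylserine and assemble around the lesion. Ferlins are tail-anchored proteins with several C2 domains, which bind phospholipids and help vesicles to fuse into a patch, and the ESCRT machinery can shed the damaged membrane. Annexins also serve in endocytosis, exocytosis and inflammation, and in phagocytes they are abundant proteins of the plasma membrane and phagosome.

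Levels are given in FPKM, fragments per kilobase of transcript scaled to sequencing depth, so that levels of different genes can be set side by side per length. Differences were taken after a log2(FPKM + 1) transform, the IL-33 mean less the PBS mean, with the standard error (SE) of limma, a linear model fitted to the 11518 genes that reached 1 FPKM in 3 or more libraries. All 10 annexin and ferlin genes were at 1 FPKM or more in all 6 libraries, so the filter removed none and none passed it through a single group. The summed FPKM was 778391 to 841884 in the IL-33 libraries and 614522 to 641412 in the PBS libraries, so results are also given with libraries rescaled to equal totals, under which the median over tested genes was -0.29, against 0.01 as deposited. Relative to PBS replicate 1, depth read from the steps between low values was 0.945 to 1.07 in the IL-33 libraries and, in the other PBS libraries, 1.09 and 1.22, while the absolute depth is unknown. The 8 listed dendritic cell markers summed to 30321 to 32870 FPKM with IL-33 and 20420 to 21904 FPKM with PBS. Most of this came from Cd74, H2-Ab1 and H2-Aa, with means of 13977, 7511 and 9275 FPKM with IL-33, against 9741, 4643 and 6370 FPKM with PBS. Itgax averaged 283 FPKM with IL-33 and 241 FPKM with PBS. Flt3 and Zbtb46 were lower with IL-33, at 74.8 and 23.5 FPKM, against 114 and 36.9 FPKM with PBS. The sums therefore do not measure the purity of the cells.

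With the values as deposited, the IL-33 libraries lay above the PBS libraries for 8 of the 10 genes, and the groups overlapped for Dysf and Anxa6. Among all tested genes the groups were apart for 63.6%, with IL-33 above for 32.7% and below for 30.9%. By limma 8 of the 10 were past an adjusted p of 0.05 as higher with IL-33 and 0 as lower, against 53.6% of all tested genes past it, 28.0% higher and 25.5% lower, and nothing is read from that count because this comparison was known when the genes were chosen. The direction depended on the scaling for some of them: Myof, Anxa1, Anxa2, Anxa3, Anxa4 and Anxa5 had differences above 0 and Anxa6 below 0 under all 4 scalings, while Anxa7, Anxa11 and Dysf turned below 0 with equal totals. The counts past the threshold were 5 higher and 1 lower under each of the 3 other scalings, and nothing is read from these either. With equal totals 61.8% of all tested genes were past the threshold, 11.1% higher and 50.7% lower. Quantile normalization gave 47.1%, with 22.1% higher and 25.0% lower. Cyclic loess gave 46.7%, with 23.7% higher and 23.0% lower. The median change of the 10 genes was 0.62, beside 0.01 over all tested genes, and with equal totals it was 0.28 beside -0.29.

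**Figure D1:**
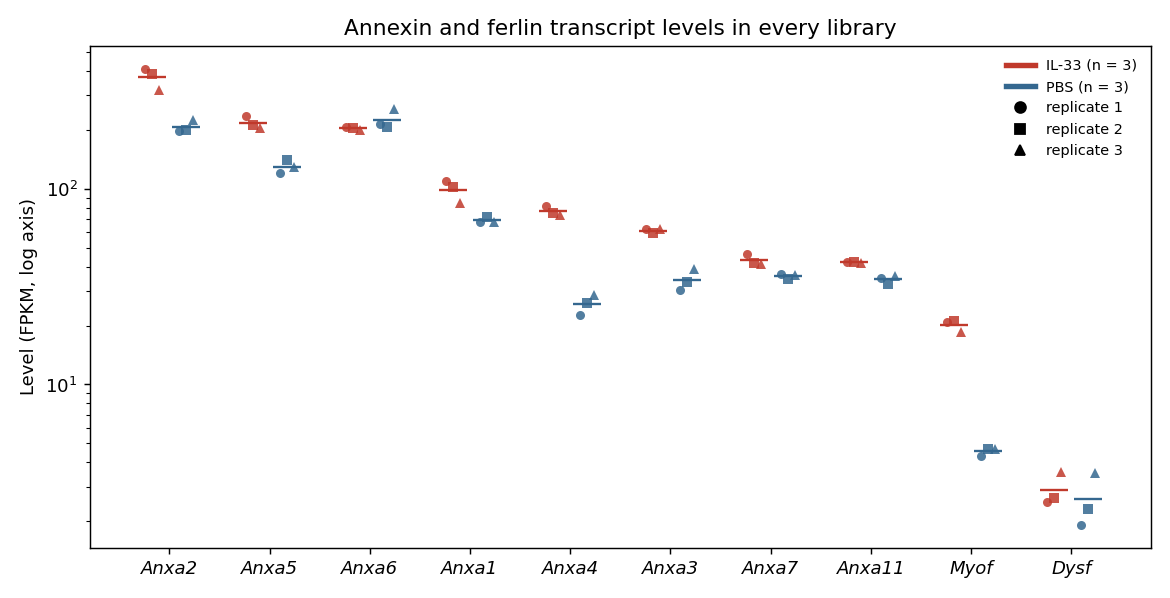
Level of each annexin and ferlin gene in FPKM on a log axis, with 1 point per library, symbols for the replicates and a line at the mean of each group of 3 libraries. The IL-33 libraries lie above the PBS libraries for 8 of the 10 genes as deposited, with Myof the farthest apart (20.2 and 4.56 FPKM on average), whereas for Anxa6 and Dysf the groups overlap.

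The ferlins differed from each other. Myof encodes myoferlin, which in mouse muscle precursors is needed for cell fusion and in endothelial cells for membrane integrity. It stood at 20.8, 21.2 and 18.6 FPKM in the IL-33 libraries, against 4.33, 4.66 and 4.70 FPKM in the PBS libraries. The groups were far apart and narrow, at 20.2 ± 1.37 and 4.56 ± 0.21 FPKM (SD, n = 3 each), a 4.43-fold higher mean and a log2 difference of 1.93 (SE 0.08). The IL-33 mean of Myof was above that of 63.8% of tested genes, and its PBS mean above that of 23.2%. Equal totals gave a log2 difference of 1.63, quantile normalization 1.96 and cyclic loess 2.02. With 1 library left out it stayed between 1.89 and 1.98.

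Dysf encodes dysferlin, whose loss in humans causes limb-girdle muscular dystrophy and whose best known role is membrane repair in muscle fibres. It was the lowest of the 10 genes, at 2.50, 2.65 and 3.58 FPKM with IL-33, against 1.92, 2.31 and 3.55 FPKM with PBS. Replicate 3 was the highest library of both groups, and the groups overlapped. The means were 2.91 ± 0.59 and 2.59 ± 0.85 FPKM (SD, n = 3 each), with a log2 difference of 0.14 (SE 0.18) as deposited and -0.11 with equal totals. The Myof to Dysf ratio of FPKM was 8.32, 8.0 and 5.20 in the IL-33 libraries, against 2.25, 2.02 and 1.32 in the PBS libraries, so Myof was the more abundant ferlin in each library. The 2 start regions are shown because these paralogs differed so much in level and in difference between the groups. They span 250 bases before and 50 after the RefSeq start, in the direction of the gene in build GRCm38.p6, which is the mm10 assembly: chr19:38043528-38043827 on the minus strand for Myof and chr6:84008348-84008647 on the plus strand for Dysf, with capitals on the motifs found.
Myof: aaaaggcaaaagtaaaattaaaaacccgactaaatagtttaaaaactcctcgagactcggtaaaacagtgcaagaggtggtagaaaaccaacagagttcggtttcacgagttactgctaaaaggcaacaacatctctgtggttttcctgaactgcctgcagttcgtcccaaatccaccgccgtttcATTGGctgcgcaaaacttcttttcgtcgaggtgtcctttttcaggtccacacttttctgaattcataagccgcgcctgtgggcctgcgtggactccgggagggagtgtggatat
Dysf: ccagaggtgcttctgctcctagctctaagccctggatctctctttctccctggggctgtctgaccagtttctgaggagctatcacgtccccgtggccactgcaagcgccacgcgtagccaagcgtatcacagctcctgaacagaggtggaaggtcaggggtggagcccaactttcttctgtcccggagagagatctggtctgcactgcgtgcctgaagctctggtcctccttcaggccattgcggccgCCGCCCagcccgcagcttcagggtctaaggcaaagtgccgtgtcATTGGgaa
In the Myof region the CCAAT box (CCAAT, read on either strand) was the only motif found among the 10 searched, from -64 to -60, with the start base as 0. Dysf held a CCAAT box downstream of its start and an Sp1 motif (GGGCGG, either strand) across it. Of the start regions of tested genes 37.9% held the CCAAT box and 61.7% the Sp1 motif. Dysf has another start region in the same table, with 3 Sp1 matches.

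**Figure D2:**
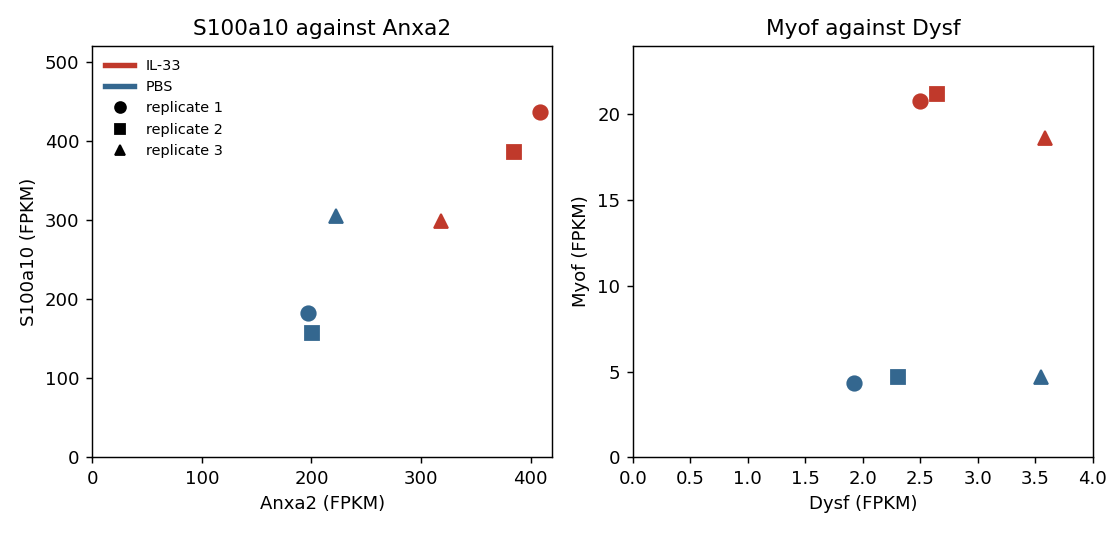
Left, S100a10 against Anxa2; right, Myof against Dysf, each in FPKM with 1 point per library and symbols for replicates. S100a10 lies near Anxa2 in level, with PBS replicate 3 off the others at 304 FPKM of S100a10, and Myof separates the groups while Dysf does not.

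Among the annexins, Anxa4 showed the widest difference. Its protein assembles into flat arrays on membranes and can bend membrane edges. Anxa4 stood at 81.7, 74.9 and 73.1 FPKM in the IL-33 libraries, against 22.7, 26.1 and 28.5 FPKM in the PBS libraries. Every IL-33 library held more than any PBS library by a wide gap, with means of 76.5 ± 4.53 and 25.8 ± 2.90 FPKM (SD, n = 3 each). The mean was 2.97-fold higher and the log2 difference 1.54 (SE 0.09) as deposited, 1.21 with equal totals and 1.37 with quantile normalization and cyclic loess. The share of Anxa4 in the summed FPKM of the 8 annexins was 6.89 ± 0.22% with IL-33 and 3.39 ± 0.21% with PBS. A common factor for a whole library, as with equal totals, leaves this share unchanged.

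Anxa2 was the most abundant annexin with IL-33. Its protein forms a tetramer with the EF-hand protein S100A10, links membranes to actin and is a cofactor of plasminogen activation at the cell surface. Anxa2 stood at 409, 385 and 318 FPKM in the IL-33 libraries, against 197, 200.1 and 223 FPKM in the PBS libraries. IL-33 replicate 3 was the lowest of its group, and the groups did not overlap. The means were 371 ± 47.0 and 207 ± 14.2 FPKM (SD, n = 3 each), 1.79-fold higher with a log2 difference of 0.83 (SE 0.11), which was 0.50 with equal totals, 0.44 after quantile normalization and 0.42 after cyclic loess. The start regions of Anxa4 and Anxa2 are shown as those of the annexin with the widest difference and of the most abundant annexin with IL-33, at chr6:86793535-86793834 on the minus strand and chr9:69453433-69453732 on the plus strand (GRCm38.p6, RefSeq, in the direction of the gene), with capitals on motifs.
Anxa4: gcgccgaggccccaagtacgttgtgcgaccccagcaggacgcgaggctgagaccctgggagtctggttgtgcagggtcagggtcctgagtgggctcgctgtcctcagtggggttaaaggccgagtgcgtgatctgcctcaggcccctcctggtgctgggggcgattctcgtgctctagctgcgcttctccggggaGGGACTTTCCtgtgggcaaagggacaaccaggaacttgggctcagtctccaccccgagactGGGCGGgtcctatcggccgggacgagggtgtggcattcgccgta
Anxa2: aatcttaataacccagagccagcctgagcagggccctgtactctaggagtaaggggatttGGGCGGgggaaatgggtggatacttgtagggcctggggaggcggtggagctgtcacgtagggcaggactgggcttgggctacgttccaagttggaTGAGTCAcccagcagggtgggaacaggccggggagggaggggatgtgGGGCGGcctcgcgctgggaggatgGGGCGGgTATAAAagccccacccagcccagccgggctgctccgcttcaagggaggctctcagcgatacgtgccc
The Anxa4 region held an NF-κB motif (searched as GGG and TTTCC with 2 bases between them) from -55 to -46, present in 1.80% of the start regions of tested genes, and an Sp1 motif downstream of the start. The Anxa2 region held an AP-1 motif (TGANTCA) from -95 to -89, a TATA box (TATAAA) from -17 to -12 and 3 Sp1 motifs. AP-1 motifs stood in 5.09% and TATA boxes in 7.03% of the start regions of tested genes. A second start region of Anxa4 in the table held none of the motifs.

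S100a10, which encodes the partner of annexin A2, had a level close to that of Anxa2. It is named here for that partnership and was chosen after its values were seen. S100a10 stood at 436, 386 and 299 FPKM with IL-33, against 182, 157 and 304 FPKM with PBS. PBS replicate 3 lay above IL-33 replicate 3, so the groups overlapped. The log2 difference was 0.84 (SE 0.25, limma adjusted p = 0.0247), and the call was lost without IL-33 replicate 1 or 2 or PBS replicate 1 or 2 and under the 3 other scalings (adjusted p up to 0.171 over the alternatives). The Anxa2 to S100a10 ratio was 0.938, 0.996 and 1.07 with IL-33, against 1.08, 1.27 and 0.732 with PBS.

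Anxa5 and Anxa3 were also higher with IL-33 under each of the 4 scalings. Annexin A5 forms crystal-like arrays on phosphatidylserine and is widely used as a probe of dying cells. Anxa5 stood at 235, 210.4 and 204 FPKM with IL-33, against 121, 139 and 128 FPKM with PBS, a 1.67-fold higher mean. The groups were apart, and the log2 difference of 0.74 (SE 0.08) was 0.40 with equal totals, 0.35 after quantile normalization and 0.36 after cyclic loess. Annexin A3 is known as an abundant calcium-binding protein of neutrophils. Anxa3 stood at 61.9, 59.0 and 61.9 FPKM with IL-33, against 30.3, 33.2 and 38.7 FPKM with PBS, 1.79-fold higher with a log2 difference of 0.83 (SE 0.09), or 0.49 with equal totals. The coefficient of variation of Anxa3 was 2.73% among the IL-33 libraries and 12.5% among the PBS libraries.

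Anxa1, Anxa7 and Anxa11 were higher as deposited, by less than the other annexins above, and with equal totals Anxa7 and Anxa11 lay slightly below 0. Annexin A1 is induced by glucocorticoids and dampens inflammation through formyl peptide receptors. Anxa1 stood at 109.9, 101 and 84.4 FPKM with IL-33, against 67.2, 71.9 and 67.3 FPKM with PBS. As for Anxa2, IL-33 replicate 3 was the lowest of its group and still above every PBS library. The log2 difference was 0.51 (SE 0.10) as deposited and 0.17 with equal totals, which is 0.46 above the median of all tested genes under that scaling.

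Annexins A7 and A11 carry long, flexible N-terminal regions and bind the calcium sensor ALG-2, encoded by Pdcd6. Annexin A11 also tethers RNA granules to lysosomes. Anxa7 stood at 46.1, 41.8 and 41.2 FPKM with IL-33, against 36.6, 34.6 and 36.3 FPKM with PBS. Anxa11 stood at 42.4, 42.4 and 41.8 FPKM with IL-33, against 35.0, 32.6 and 36.0 FPKM with PBS. For both genes the groups were apart as deposited, with log2 differences of 0.26 (SE 0.07) and 0.28 (SE 0.06), but with equal totals these were -0.076 and -0.050. With 1 library left out the difference of Anxa7 ranged from 0.21 to 0.29, and that of Anxa11 from 0.24 to 0.31. The level of Anxa11 is less certain than those of the others, since 26.0% of the 50-base words of its longest transcript in GENCODE M21 also occur in transcripts of the genes Gm2260 and Gm2274, and in the remaining 9 genes this share was 0.

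Anxa6 went against the other annexins. Its protein carries a duplicated annexin core and forms a repair cap at muscle lesions in mice. Anxa6 stood at 207, 204 and 199.7 FPKM with IL-33, against 214, 205 and 255 FPKM with PBS. The groups overlapped as deposited because PBS replicate 2 lay between IL-33 libraries, and PBS replicate 3 was the highest of the 6. The means were 204 ± 3.80 and 225 ± 26.7 FPKM (SD, n = 3 each), 0.906-fold, with a log2 difference of -0.14 (SE 0.09). With equal totals the difference was -0.47, after quantile normalization -0.52 and after cyclic loess -0.53. It lay 0.15 below the median of all tested genes as deposited and 0.19 below it with equal totals.

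**Figure D3:**
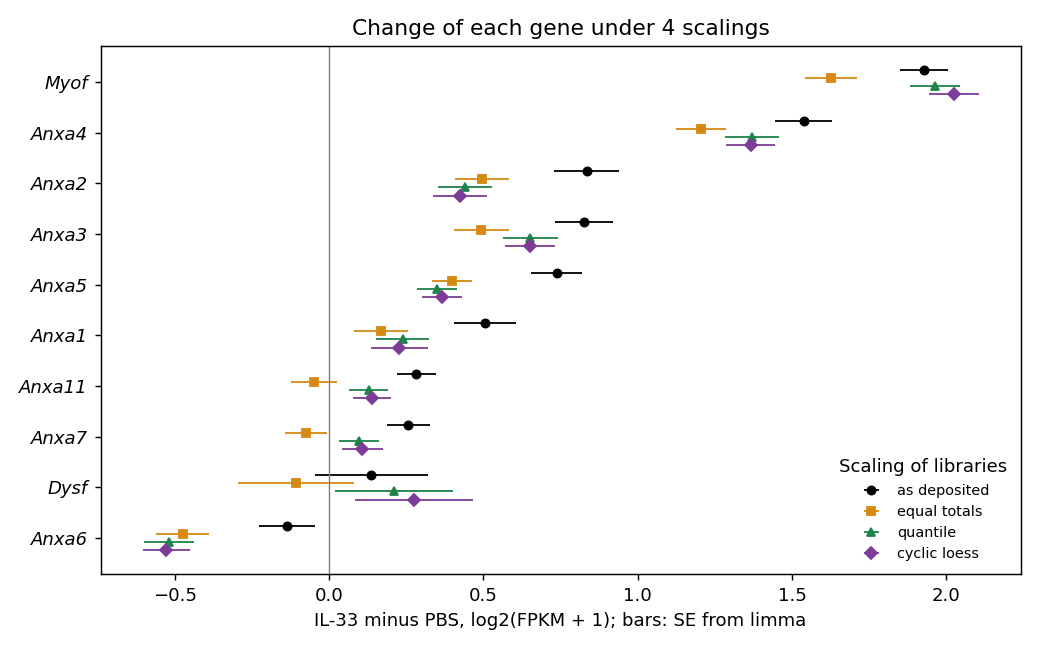
Log2 difference (IL-33 minus PBS, on log2(FPKM + 1)) of each gene with its limma SE, for the deposited values and 3 other scalings of the libraries. Myof, Anxa4, Anxa2, Anxa3, Anxa5 and Anxa1 lie above 0 under all 4 scalings, Anxa6 lies below 0 under all 4, and Anxa7, Anxa11 and Dysf change sign with equal totals.

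The make-up of annexin transcript can be compared within a library, where a common factor for the whole library, as with equal totals, cancels. The shares are from the deposited FPKM, and quantile normalization and cyclic loess could change them. Anxa6 made up 18.4 ± 1.06% of the summed FPKM of the 8 annexins with IL-33 and 29.5 ± 1.89% with PBS (SD, n = 3 each). Anxa2 made up 33.2 ± 1.89% with IL-33 and 27.2 ± 0.22% with PBS, and Anxa5 made up 19.5 ± 0.60% and 17.1 ± 1.51%. The ratio of Anxa2 to Anxa6 was 1.97, 1.88 and 1.59 in the IL-33 libraries, against 0.917, 0.976 and 0.873 in the PBS libraries, so the order of these genes was opposite in the 2 groups. The shares of Anxa1 were close, at 8.84 ± 0.53% and 9.08 ± 0.73%. The summed annexin FPKM was 1193, 1119 and 1025 in the IL-33 libraries, against 724, 743 and 813 in the PBS libraries, and it made up 0.142%, 0.144% and 0.131% of all FPKM with IL-33, against 0.118%, 0.116% and 0.127% with PBS.

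**Figure D4:**
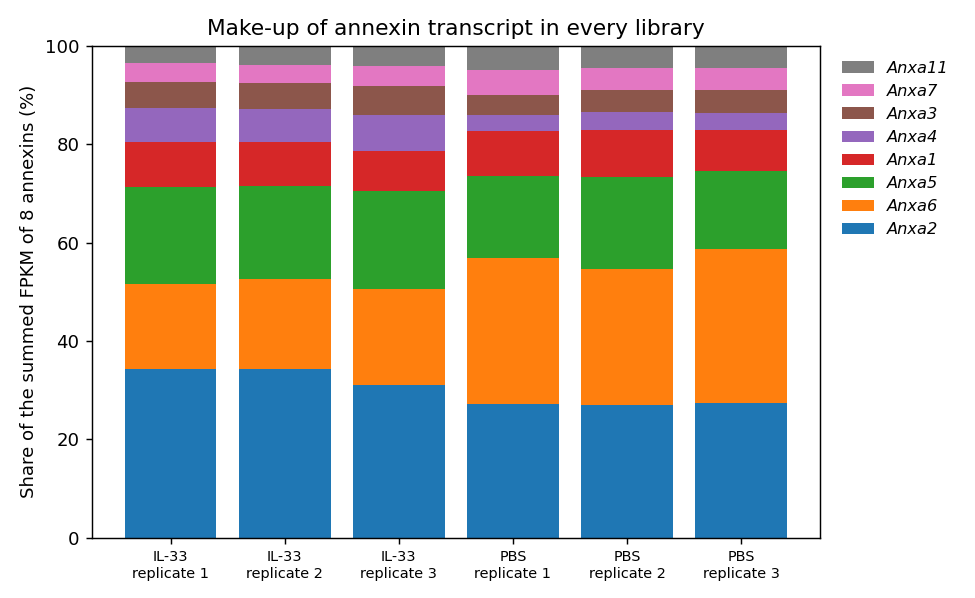
Share of each annexin in the summed FPKM of the 8 annexins, in percent, with 1 stacked bar per library. The Anxa6 band averages 18.4% in the IL-33 libraries and 29.5% in the PBS libraries, and the Anxa4 band 6.89% and 3.39%.

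The order of levels also differed. With IL-33 it ran Anxa2, Anxa5, Anxa6, Anxa1, Anxa4, Anxa3, Anxa7, Anxa11, Myof and Dysf, and neighbours overlapped in range for Anxa5 and Anxa6 and for Anxa7 and Anxa11. With PBS it ran Anxa6, Anxa2, Anxa5, Anxa1, Anxa7, Anxa11, Anxa3, Anxa4, Myof and Dysf, with overlaps for Anxa6 and Anxa2, for Anxa7 and Anxa11 and for Anxa11 and Anxa3. Anxa4 thus had rank 5 with IL-33 and rank 8 with PBS.

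Of the other annexins and ferlins matched, Anxa9 stood at about the level of Dysf and the rest were below 1 FPKM. Anxa9, an annexin with altered calcium sites, was the only tested gene among them, at 1.98 ± 0.28 FPKM with IL-33 and 2.02 ± 0.14 FPKM with PBS (SD, n = 3 each, log2 difference -0.025, SE 0.11, limma adjusted p = 0.858), and its sign was positive with quantile normalization and cyclic loess. Anxa10 and Fer1l4 were listed at 0 in all 6 libraries. Anxa8 did not exceed 0.0847 FPKM and Anxa13 was above 0 only in IL-33 replicate 1. Otof, which encodes the otoferlin of hair cells, stood at 0.607, 0.371 and 0.280 FPKM with IL-33, against 0.0814, 0.0934 and 0.0753 FPKM with PBS. Fer1l5 stood at 0.281, 0.342 and 0.318 FPKM with IL-33, against 0.546, 0.379 and 0.422 FPKM with PBS. Both lay below the filter. Without a filter Otof was past the threshold as higher (log2 difference 0.38, SE 0.08, limma adjusted p = 0.0155) while Fer1l5 was not (adjusted p = 0.0936). Fer1l6 was not analysed here.

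Genes that work with annexins and ferlins were tested as partner lists, 86 genes in all, of which 46 rose and 9 fell (limma, adjusted over all tested genes, against 28.0% and 25.5% of all tested genes). Their median change was 0.27 as deposited. With equal totals 22 were higher and 31 lower (median -0.040), against 11.1% and 50.7% of all tested genes (median -0.29). Quantile normalization gave 32 higher and 12 lower, against 22.1% and 25.0% of all tested genes, and cyclic loess 34 and 12, against 23.7% and 23.0%. The counts of each list below are to be read beside the shares of the same scaling. These lists were written from textbook knowledge when earlier results of these data were known.

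**Figure D5:**
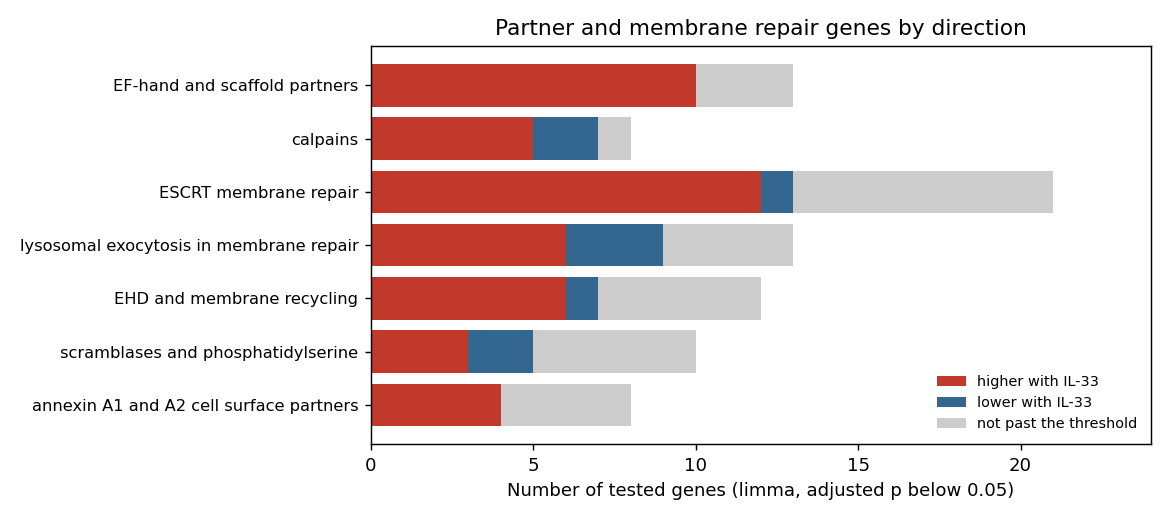
Number of tested genes in each partner list that were higher with IL-33, lower with IL-33 or not past the threshold (limma, adjusted p of 0.05), with values as deposited. In the EF-hand and scaffold list 10 of 13 were higher and 0 lower, a split that was 4 and 3 with equal totals, and in the ESCRT list 12 of 21 were higher and 1 lower, a split of 4 and 7 with equal totals. Of all tested genes 28.0% were higher and 25.5% lower as deposited, and 11.1% and 50.7% with equal totals.

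Among EF-hand proteins and scaffolds that bind annexins or ferlins, 10 of 13 tested genes rose and 0 fell (median 0.40). With equal totals 4 were higher and 3 lower (median 0.069). Quantile normalization gave 5 and 1, and cyclic loess 6 and 1. Parvb, whose product affixin binds dysferlin, rose to 9.40 ± 1.5 FPKM with IL-33, against 2.66 ± 0.44 FPKM with PBS (log2 change 1.5, SE 0.13, adjusted p = 0.000361). S100a1 rose to 40.7 ± 5.89 FPKM, against 16.4 ± 4.11 FPKM with PBS (log2 change 1.28, SE 0.19, adjusted p = 0.00179). S100a6, which encodes a partner of annexin A11, rose by 0.88 (SE 0.18, adjusted p = 0.00642), and lost the call with quantile normalization (adjusted p = 0.0737, in a range up to 0.0737). For S100a11, the partner of annexin A1, and Pdcd6, both named after their values were seen, the log2 changes were 0.38 (SE 0.08, adjusted p = 0.00742) and 0.34 (SE 0.08, adjusted p = 0.00865), and both calls were lost under the 3 other scalings (adjusted p up to 0.622 and 0.907).

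Calpains are calcium-dependent proteases that cleave dysferlin and cytoskeletal proteins at wounds. Of 8 tested 5 rose and 2 fell (median 0.34), with 3 and 3 at equal totals and 5 and 1 after quantile normalization or cyclic loess. The small subunit gene Capns1 rose to 272 ± 19 FPKM with IL-33, against 167 ± 7.74 FPKM with PBS (log2 change 0.70, SE 0.07, adjusted p = 0.000619). Capn2 rose by 0.73 (SE 0.09, adjusted p = 0.000824) and Capn5 by 0.92 (SE 0.18, adjusted p = 0.0046). Capn15 and Capn7 fell by 0.36 (SE 0.11, adjusted p = 0.0249) and 0.26 (SE 0.07, adjusted p = 0.0143). The call of Capn7 was lost without IL-33 replicate 2 (-0.23) or PBS replicate 2 (-0.24), and that of Capn15 was lost without IL-33 replicate 1 or 2 or PBS replicate 1 or 2 (-0.36 to -0.28) and with quantile normalization (-0.26), cyclic loess (-0.22) or no filter (adjusted p = 0.0518), in a range of adjusted p up to 0.101.

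ESCRT genes, whose products cut off damaged membrane, rose in 12 of 21 cases and fell in 1 (median 0.25). With equal totals the counts were 4 and 7 (median -0.043), and with quantile normalization or cyclic loess 5 and 1. Vps37b, of the ESCRT-I complex, rose to 57.2 ± 6.01 FPKM with IL-33, against 29.3 ± 1.68 FPKM with PBS (log2 change 0.94, SE 0.09, adjusted p = 0.000485). The ESCRT-III genes Chmp2b and Chmp1a rose by 0.65 (SE 0.07, adjusted p = 0.000711) and 0.58 (SE 0.07, adjusted p = 0.00103). Vps37a fell by 0.28 (SE 0.08, adjusted p = 0.0251), a call lost without IL-33 replicate 1 or PBS replicate 1 or 2 (-0.29 to -0.23) and with quantile normalization (-0.18), cyclic loess (-0.14), no filter or a mean of at least 5 FPKM, in a range of adjusted p up to 0.185.

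Genes of lysosomal exocytosis, which supplies membrane to wounds, were split, with 6 of 13 higher and 3 lower (median 0.27), or 4 and 6 with equal totals. Vamp7, listed at 0 in all 6 libraries, and Syt7, which did not exceed 0.247 FPKM, lay below the filter. Lamp1, a major lysosomal membrane protein, rose to 473 ± 21.4 FPKM with IL-33, against 239 ± 34.5 FPKM with PBS (log2 change 0.99, SE 0.11, adjusted p = 0.000753). The vesicle SNARE gene Vamp8 rose by 0.85 (SE 0.11, adjusted p = 0.00122) and Lamp2 by 0.61 (SE 0.09, adjusted p = 0.00184). The secretory transport genes Myo5a, Rab27a and Unc13d fell by 0.66 (SE 0.15, adjusted p = 0.00915), 0.57 (SE 0.11, adjusted p = 0.00525) and 0.38 (SE 0.08, adjusted p = 0.00556).

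EHD proteins are membrane-shaping ATPases that bind ferlins, and with recycling genes 6 of 12 rose and 1 fell (median 0.21). The counts were 2 and 6 with equal totals, and 5 and 4 after either of the 2 remaining scalings. Ehd1 rose to 65.7 ± 4.70 FPKM with IL-33, against 40.6 ± 2.07 FPKM with PBS (log2 change 0.68, SE 0.08, adjusted p = 0.000748), and Rab11fip5 rose by 0.69 (SE 0.13, adjusted p = 0.00414). Rab35 rose by 0.38 (SE 0.07, adjusted p = 0.0039) but not with equal totals (0.043, adjusted p = 0.647, the highest over the alternatives). Ehd3 fell to 0.85 ± 0.05 FPKM with IL-33, against 4.01 ± 1.68 FPKM with PBS (log2 change -1.38, SE 0.23, adjusted p = 0.00279).

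Scramblases and flippases set how much phosphatidylserine, the lipid that annexins bind, faces outward. Of 10 tested genes 3 rose and 2 fell (median 0.09), or 1 and 4 with equal totals. Ptdss2, a phosphatidylserine synthase, rose by 0.60 (SE 0.08, adjusted p = 0.00118). Ptdss1 and Plscr1 rose by 0.26 (SE 0.06, adjusted p = 0.0101) and 0.43 (SE 0.09, adjusted p = 0.00776), but not with equal totals (-0.063 and 0.11). The flippase gene Atp8a1 fell by 0.30 (SE 0.10, adjusted p = 0.0419), and lost its call without IL-33 replicate 1 or 2 or PBS replicate 2 or 3 (-0.32 to -0.23) or without the filter (adjusted p = 0.0673).

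Among surface partners of annexins A1 and A2, 4 of 8 tested genes rose and 0 fell (median 0.38), or 4 and 2 with equal totals, and without PBS replicate 1 the gene Fpr1 was lower. The rises named here were in genes of plasminogen activation. Plaur, the urokinase receptor, rose to 111 ± 11.4 FPKM with IL-33, against 45.9 ± 3.69 FPKM with PBS (log2 change 1.26, SE 0.10, adjusted p = 0.00022). Urokinase itself, Plau, rose to 14.9 ± 2.61 FPKM with IL-33, against 5.29 ± 0.94 FPKM with PBS (log2 change 1.34, SE 0.15, adjusted p = 0.000747). The formyl peptide receptor genes Fpr1 and Fpr2, named after their values were seen, did not pass as deposited, at 21.9 ± 1.96 and 12.6 ± 0.98 FPKM with IL-33, against 26.9 ± 7.73 and 13.1 ± 2.43 FPKM with PBS (limma adjusted p = 0.327 and 0.848). With equal totals Fpr1 was called lower (-0.58) and Fpr2 was not past the threshold.

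Markers of other cells also differed between the groups, higher with IL-33 for some cell types and lower for others. In bulk libraries fewer cells of a type and less RNA per cell cannot be told apart. Of 10 tested neutrophil markers 8 rose and 1 fell, and the 11 matched summed to 1257 to 2528 FPKM with IL-33 and 518 to 844 FPKM with PBS. Of 9 eosinophil markers 7 rose and 0 fell, summing to 879 to 1258 FPKM with IL-33 and 218 to 311 FPKM with PBS. Monocyte markers were split, 4 higher and 3 lower of 8, summing to 977 to 2192 FPKM with IL-33 and 684 to 893 FPKM with PBS, and of 10 macrophage markers 3 rose and 0 fell, summing to 3181 to 4352 and 1988 to 3522 FPKM. All 7 tested T cell markers fell and all 7 NK cell markers fell, their sums at 47.7 to 65.3 and 181 to 283 FPKM with IL-33, against 140 to 300 and 451 to 519 FPKM with PBS. Plasma cell markers rose in 5 of 6 cases, summing to 403 to 432 FPKM with IL-33 and 130 to 176 FPKM with PBS. Basophil and mast cell markers rose in 4 of 5 and fell in 1. The 8 matched summed to 41.3 to 46.1 FPKM with IL-33 and 37.6 to 43.6 FPKM with PBS. Most of the PBS sum came from Kit, the 1 that fell, at 21.7 FPKM with IL-33 and 38.3 FPKM with PBS. The 4 that rose had means of 2.41 to 8.57 FPKM with IL-33 and 0.139 to 0.385 FPKM with PBS. The close sums therefore do not show these rises. Each of the 4 was below 1 FPKM in every PBS library and passed the filter only through the IL-33 libraries. Nothing is therefore read from this count of rises. Fcer1a, Ms4a2 and Gata2 did not pass the filter. Of 7 B cell markers 2 fell, with sums of 346 to 465 FPKM with IL-33 and 302 to 723 FPKM with PBS, and of 6 erythroid and platelet markers 1 rose, at 35.7 to 295 and 65.6 to 503 FPKM. Among markers of dendritic cells in general 4 rose and 3 fell of 8, of type 1 conventional cells 1 and 5 of 6 (439 to 472 FPKM with IL-33, 378 to 389 with PBS), of type 2 cells 2 and 2 of 6 (479 to 572 and 414 to 504), and of plasmacytoid cells 0 and 3 of 6 (353 to 458 and 371 to 574). The higher type 1 sum with IL-33 came from Batf3, the 1 that rose, at 236 FPKM with IL-33 and 82.4 FPKM with PBS. Some other markers counted as rises were also below 1 FPKM in every PBS library and passed the filter only through the IL-33 libraries. They were Epx, Ear1 and Ear6 for eosinophils, Mpo for neutrophils, Tnfrsf17 for plasma cells and Itga2b for platelets. Nothing is read from the rises of these genes. The marker counts above are as deposited, where 28.0% of all tested genes were higher and 25.5% lower, and some moved with the scaling. Higher macrophage markers numbered 0 with equal totals and 1 with quantile normalization or cyclic loess. The split of the general dendritic cell markers was 3 higher and 4 lower with equal totals. Quantile normalization gave 1 higher and 4 lower, and cyclic loess 0 and 4. With equal totals 4 type 2 and 5 plasmacytoid markers were lower, 2 monocyte markers were higher, 2 neutrophil markers were lower and 0 erythroid and platelet markers were higher. The eosinophil, basophil and mast cell, plasma cell, type 1, T, NK and B cell counts were equal under the 4 scalings. No listed marker of these cell types was at 0 in all 6 libraries. The part of these cells in the levels of annexin and ferlin genes was not tested.

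Likeness of pattern was measured by Pearson's r of log2(FPKM + 1) over the 6 libraries, among 8572 other genes with a mean of at least 5 FPKM. The libraries fall into 2 groups, so r mostly reflects the step between the groups, and for Myof 189 genes had an r of at least 0.99. The 5 closest to Myof were Prg2, Sec11c, Me2, Pmm1 and Eif2b2 (r = 0.999 each). Their log2 differences ran from 0.44 (Sec11c) to 5.28 (Prg2, an eosinophil granule protein gene). For Anxa6 the closest were Mcm4 (r = 0.99), Armc5, Gzmk, Tpst2 and Mppe1, all highest in PBS replicate 3, the library with the most Anxa6. Gzmk, a granzyme of T and NK cells, stood at 41.2 FPKM in that library and at 4.2 and 2.14 FPKM in PBS replicates 1 and 2.

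In the GENCODE M21 annotation of GRCm38 the genes lie on 7 chromosomes, with Myof and Anxa1 on chromosome 19, Dysf and Anxa4 on chromosome 6 and Anxa7 and Anxa11 on chromosome 14. Myof runs from 37899036 to 38043577 on the minus strand and Dysf from 84008590 to 84211060 on the plus strand, with 53 and 55 exons in their longest coding transcripts. Anxa4 runs from 86736840 to 86793584 on the minus strand of chromosome 6 and Anxa2 from 69453620 to 69491795 on the plus strand of chromosome 9. The annexin transcripts encode 319 to 503 residues, apart from Anxa6 with 673, and the ferlins 2048 and 2082. Antisense or opposite-strand genes overlap Dysf, Anxa1, Anxa2, Anxa4 and Anxa11, and whether the authors counted by strand is not given in the sources used here. RefSeq start regions were matched for 8 of the 10 genes, all but Anxa3 and Anxa6, and gave 11 regions in all. None of the 11 held the STAT motif TTCNNNGAA, the STAT6 motif (TTC and GAA with 4 bases between them) or the CRE motif TGACGTCA, which stood in 7.06%, 5.49% and 3.04% of the start regions of tested genes. The PU.1 core GAGGAA stood in those of Anxa1 and Anxa11 (27.5% of tested genes) and the E-box CACGTG in 1 of Anxa7 (9.97%). The start region of Anxa1 was poor in CpG, with an observed to expected ratio of 0.179, and that of Myof rich for its 46.3% GC, with 0.932, beside a median of 0.756 over tested genes.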

How the data were processed

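Each library has a deposited file of 24346 gene symbols, each with an FPKM value made by the authors. The submitters' processing notes name Cuffnorm 2.2.1, TopHat2 2.0.13, SAMtools 0.1.19, Bowtie2 2.2.3 and build mm10, and per the labels' protocols a stranded mRNA kit was used. Annotation: not given in the sources used here. The same holds for the scaling in Cuffnorm and for counting by strand. FPKM values carry no counts, so absolute depth is unknown. The 11518 genes that reached 1 FPKM in 3 or more of the 6 libraries were fitted with limma 3.58.1 (R 4.3.3) on log2(FPKM + 1), with a variance that follows the mean, treatment as the only term and no replicate block. All tests are two-sided, with Benjamini-Hochberg adjustment over all tested genes and a threshold of 0.05, and the fit was tested on simulated data. The pseudocount of 1 understates changes of low genes. Alternatives were pseudocounts of 0.1 and 5, no filter, a mean of at least 5 FPKM, 3 other scalings, no mean trend, a replicate block, and each library left out. The gene set and the 8 partner and 14 marker lists were chosen with earlier results of these data known. Named were all genes of the set, all other annexins and ferlins, and per partner list up to 3 rises and 3 falls with groups apart, largest first, plus the 5 genes most like Myof and Anxa6. Some genes that this rule names are not reported here, though list counts include them. Symbols absent from the tables were matched through RefSeq synonyms, positions and transcripts came from GENCODE M21, and start regions from RefSeq (GRCm38.p6). Tables and figures used matplotlib 3.10.9, numpy 2.4.6, pandas 2.3.3 and Python 3.11.15.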

Additional observations from a re-analysis of the deposited data

How the results depend on the processing

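Scaling was the choice that moved most. With equal totals 1280 genes were higher and 5840 lower, against 3230 and 2939 as deposited. Of the 10 annexin and ferlin genes 5 were higher and 1 lower with equal totals, with quantile normalization and with cyclic loess, against 8 and 0, and the changes of Anxa7 and Anxa11 were reversed with equal totals (-0.076 and -0.050). Of the partner genes 22 were higher and 31 lower with equal totals, against 46 and 9, and 5 were lower with the replicate block, where 40 were higher. Ptdss1 was reversed with equal totals (-0.063), and Anxa9, which was not called, with quantile normalization (0.048), cyclic loess (0.11) or without IL-33 replicate 2 or PBS replicate 3 (-0.097 to 0.037 with 1 library left out). The cause was not tested. With 1 library left out, 2622 to 3108 genes were higher and 2214 to 2768 lower, 7 to 8 of the 10 genes were higher (Anxa7 was not past the threshold without IL-33 replicate 1 or PBS replicate 2) and 0 lower, and 37 to 42 partner genes were higher and 5 to 10 lower, with 5 without PBS replicate 2. Without a filter, Otof, which the filter removed, was called higher (0.38). By list, calpains had 3 higher at a mean of at least 5 FPKM and 0 lower with the replicate block or without IL-33 or PBS replicate 2. ESCRT genes had 0 lower with no filter, a mean of at least 5 FPKM or the block. EHD and recycling genes had 0 lower at a mean of at least 5 FPKM, scramblase genes 1 lower with the block, and the EF-hand list 1 lower without IL-33 replicate 3. Replicate numbers are shared by the groups, but deviations of same-numbered libraries correlated at only 0.0749, -0.0544 and 0.089, so the numbers were not treated as pairs. The calls of Capn7, Capn15, Vps37a and Atp8a1 were lost with the replicate block (adjusted p = 0.0528, 0.0646, 0.0594 and 0.0743 by limma). With it 2806 genes were higher and 2452 lower, and 8 of the 10 genes were higher. Expression as FPKM gives no depth, so the precision of low genes such as Dysf and Otof cannot be stated.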
